A study of Mus musculus with 17 samples.

Results

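The transcripts described here belong to 40 genes of the cell cycle and DNA replication in adult mouse liver, out of 24676 genes in the deposited table of normalized counts. They were picked by gene symbol and found by that symbol in the table. By role they comprised 6 genes of G1 cyclins and cell cycle entry, 10 of origin licensing and the replication fork, 3 of nucleotide supply, 13 of G2 and mitotic regulation, and 8 of the spindle, the chromosomes and proliferation marking. Of the 40, 26 reached 10 normalized counts in 4 or more libraries, the filter for testing, and 14 did not.

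Liver messenger RNA came from 11-week-old males of a mixed strain, with genotype crossed with treatment. Every mouse was homozygous for floxed Gata4, the gene of a zinc-finger transcription factor, and had received an adeno-associated virus, AAV8, 1 week earlier. In the arm called Gata4LKO the virus carried Cre under the Tbg promoter, which is active in hepatocytes, and in the control arm it was empty, so Cre itself and the genotype cannot be told apart. The mice were gavaged with the liver X receptor (LXR) agonist GW3965 at 40 mg/kg, or with the vehicle of DMSO in canola oil, at 17 h and again at 8 h before sacrifice, and food was withheld for 4 h. There were 4 groups, control vehicle (n = 4, libraries 1 to 4), Gata4LKO vehicle (n = 4, libraries 5 to 8), control GW3965 (n = 4, libraries 9, 10, 12 and 13) and Gata4LKO GW3965 (n = 5, libraries 14 to 18). Groups follow the sample titles. The treatment label contradicted the title in 8 of 17 libraries, those of the Gata4LKO vehicle and control GW3965 groups.

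Depth in genes ran from 11.8 to 22.05 M reads per library. In 5 libraries, 1, 10, 13, 17 and 18, mitochondrially encoded genes took 15.6% to 32.6% of the normalized counts, against 6.06% to 7.26% in the others, and libraries 6 and 16 had the fewest genes above 0 (15515 and 15601). Reads of the pseudogene Gm5345 were at or near 0 in libraries 5 to 10 and between 23.1 and 101.3 normalized counts elsewhere. All Gata4LKO vehicle libraries were on the near-0 side and all control vehicle libraries on the other. With vehicle, this split of the libraries and the genotype therefore cannot be told apart. Gata4 transcripts ranged from 128 to 183 in control vehicle, 137 to 234 in Gata4LKO vehicle, 164 to 258 in control GW3965 and 160 to 260 in Gata4LKO GW3965, and so were not lower in the libraries labelled Gata4LKO. Such counts also take in exons outside the floxed part and cells without Tbg activity, so they neither show nor refute the deletion, and every genotype difference below is one between labelled groups. The LXR targets Scd2 and Abcg8 rose with GW3965 in both genotypes, by 2.53 and 1.33 on the log2 scale in control and by 2.38 and 1.25 in Gata4LKO. All 8 hepatocyte markers were abundant, with Alb at the top of the list, while the neutrophil marker Ly6g was close to absent (mean of 0.152).

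Cells enter the cycle when D-type and E-type cyclins switch on cyclin-dependent kinases, which free E2F transcription factors from the retinoblastoma proteins. E2F targets then load the MCM helicase on replication origins and supply nucleotides, and a later wave, read out through CHR and CCAAT promoter elements, builds the mitotic machinery. Hepatocytes of the adult liver are mostly out of the cycle and re-enter it after injury or resection.

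In these livers the genes of entry, licensing and nucleotide supply, Cdc6 apart, were detected at low to moderate levels and most mitotic genes were close to undetected. Per kilobase of exon, which allows levels of different genes to be compared, the median over all 40 genes was 2.73 normalized counts. It was 11.2 over the 26 that were tested, against 45.5 over 13373 tested genes with a known length. The 14 others failed the filter that those genes passed, so their low place among them is partly set by the filter. The median was 16.5 for the G1 genes, 11.5 for licensing and fork genes, 16.6 for nucleotide supply, 1.42 for G2 and mitotic regulators and 1.04 for spindle and proliferation genes. Of the 40 genes, 37 lay below the median of the tested genes and 20 in their lowest 5%. The 3 above it were Mcm10 (134.6 per kb), Pcna (60.4) and Ccnd1 (49.3).

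**Figure D1:**
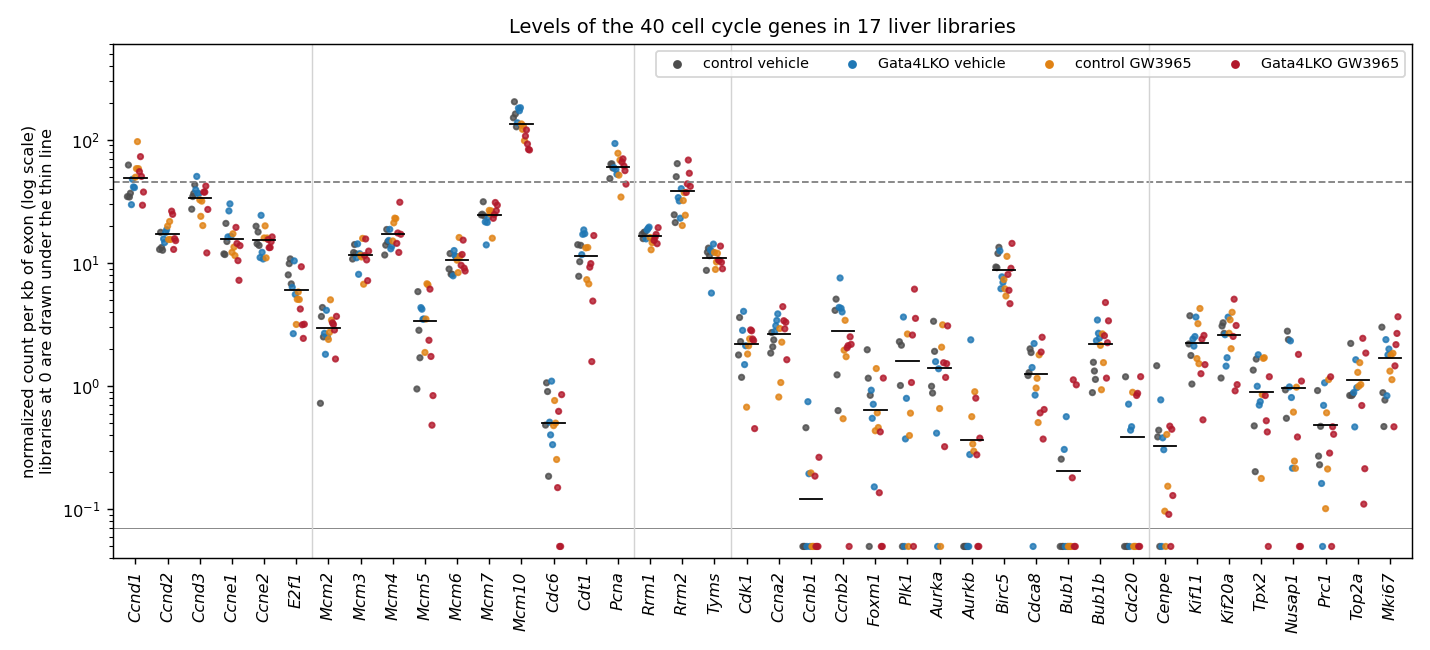
Normalized count per kilobase of exon (log scale) of each of the 40 genes in each of 17 libraries, coloured by group; black bars mark the mean over all libraries, the dashed line marks the median of 45.5 over all tested genes, and points under the thin line are libraries at 0. Mcm10 stands above every other member at 134.6 per kb, and the means of all G2, mitotic and spindle genes but Birc5 lie below 3.

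All 14 genes that were not tested had at least 1 library without a read, and none had more than 14 reads in any library. They were Cdc6, which loads the helicase, Ccnb1 and Ccnb2 (B-type cyclins), the transcription factor gene Foxm1, the mitotic kinases Plk1, Aurka, Aurkb and Bub1, the chromosomal passenger gene Cdca8, the anaphase activator Cdc20, the kinetochore motor Cenpe, and the spindle genes Tpx2, Nusap1 and Prc1. No read was found for Ccnb1 and for Bub1 in 11 of 17 libraries, for Cdc20 in 9 and for Aurkb in 8. The 14 genes together summed to 44.5 to 64.4 normalized counts in control vehicle, 38.9 to 53.4 in Gata4LKO vehicle, 27.5 to 50.5 in control GW3965 and 17.9 to 56.9 in Gata4LKO GW3965, with overlap between all groups. A library that gave no read still allows up to 3 reads by counting error alone. Refitted without the filter, 0 of the 14 genes were called in any comparison by limma, and at most 1 in a comparison had an unadjusted p below 0.05 (Bub1, Aurkb or Ccnb2).

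The mitotic and proliferation genes that did pass the filter were low as well. Mki67, whose protein coats mitotic chromosomes and which is the usual proliferation marker, averaged 17.0 normalized counts, and Top2a, the topoisomerase that untangles sister chromatids, averaged 10.0. Mki67 was 30.3, 8.91, 4.73 and 7.77 in control vehicle, 24.0, 8.42, 18.1 and 20.2 in Gata4LKO vehicle, 13.3, 18, 11.4 and 18.6 in control GW3965 and 4.71, 14.7, 21.9, 27.0 and 36.8 in Gata4LKO GW3965. The groups overlapped throughout, and the lowest and the highest library, 14 and 18, both belonged to Gata4LKO GW3965. Kif20a, the mitotic kinesin with the most counts per kilobase among the spindle genes, ran from 5.05 to 14.2 in control vehicle, 6.31 to 15.8 in Gata4LKO vehicle, 8.74 to 17.3 in control GW3965 and 3.98 to 22.1 in Gata4LKO GW3965. Birc5, the chromosomal passenger survivin and the highest of the G2 and mitotic regulators per kilobase, ran from 31.2 to 45.6, 21.0 to 42.7, 18.4 to 38.5 and 15.9 to 49.1 in the same order. In bulk liver, fewer cycling cells and less RNA per cycling cell cannot be told apart.

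Promoter windows set some of these roles apart in sequence. RefSeq windows of 300 bases (250 before to 50 after the gene start, build GRCm38.p6) were found for 31 of the 40 genes, in 34 windows. They were searched on both strands for the CHR element (TTTGAA or TTCGAA), for CCAAT, and for 3 forms of the E2F site (TTTCGCGC, TTTGGCGC and TTTCCCGC). CHR letters stood in 13 of the 17 windows of G2, mitotic and spindle genes (76.5%), against 19.2% of all 32851 windows in the table, and in 2 of the 10 windows of licensing and fork genes. Both windows of Prc1 are among the 13, and they overlap. E2F letters stood in 6 of the 10 licensing and fork windows (60.0%), in 1 of the 17 later ones, and in 1.84% of all windows. None stood in the 4 windows of G1 genes or the 3 of nucleotide supply. CCAAT was found in 26 of the 34 windows (76.5%) and in 37.4% of all windows. It stood in 8 of the 10 licensing and fork windows and in 15 of the 17 later ones, so it did not set these apart. Ccnd1, Ccnd2, Ccne2, Mcm4, Ccna2, Foxm1, Aurkb, Kif20a and Tpx2 had no entry.

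Of the windows printed, each on the minus strand with matched letters in capitals, that of Mcm10 is shown because this gene carries the main result, that of Mcm6 as a helicase subunit with E2F letters, and those of Cdk1 and Ccnb2, the mitotic kinase and its cyclin, for the CHR and CCAAT letters. They were chosen after the values were seen.
Mcm10, chr2:5012742-5013041: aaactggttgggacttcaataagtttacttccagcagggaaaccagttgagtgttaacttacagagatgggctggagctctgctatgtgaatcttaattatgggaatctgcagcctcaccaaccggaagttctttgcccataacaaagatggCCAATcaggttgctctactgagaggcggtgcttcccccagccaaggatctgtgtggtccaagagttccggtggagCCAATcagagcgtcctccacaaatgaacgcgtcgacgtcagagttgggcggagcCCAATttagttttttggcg
Mcm6, chr1:128359656-128359955: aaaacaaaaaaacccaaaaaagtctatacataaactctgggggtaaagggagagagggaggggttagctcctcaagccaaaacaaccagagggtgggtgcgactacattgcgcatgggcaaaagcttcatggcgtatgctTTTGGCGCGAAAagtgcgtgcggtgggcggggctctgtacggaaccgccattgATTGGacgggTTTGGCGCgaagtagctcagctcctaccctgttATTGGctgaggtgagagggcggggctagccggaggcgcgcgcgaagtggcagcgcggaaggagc
Cdk1, chr10:69352863-69353162: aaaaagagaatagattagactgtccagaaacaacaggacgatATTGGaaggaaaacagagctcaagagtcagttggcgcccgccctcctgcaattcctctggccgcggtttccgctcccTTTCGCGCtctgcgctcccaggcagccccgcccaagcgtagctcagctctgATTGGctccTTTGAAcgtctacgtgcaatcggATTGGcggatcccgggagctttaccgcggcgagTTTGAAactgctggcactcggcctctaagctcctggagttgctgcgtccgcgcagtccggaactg
Ccnb2, chr9:70421505-70421804: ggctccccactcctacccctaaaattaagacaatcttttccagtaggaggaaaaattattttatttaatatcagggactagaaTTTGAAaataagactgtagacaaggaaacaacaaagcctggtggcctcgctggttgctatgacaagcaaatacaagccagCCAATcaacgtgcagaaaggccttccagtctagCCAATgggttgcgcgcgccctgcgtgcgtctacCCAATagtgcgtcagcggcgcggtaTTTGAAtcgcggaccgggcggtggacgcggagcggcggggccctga
The Mcm10 window held 3 CCAAT matches and neither CHR nor full E2F letters. It ends in tttggcg, the start of the searched form TTTGGCGC, and the next base lies outside the window. The Mcm6 window held 3 E2F matches, of which 2 overlap, and 2 CCAAT matches. The Cdk1 window held 2 CHR, 3 CCAAT and 1 E2F match, and the Ccnb2 window 2 CHR and 3 CCAAT matches. A match describes letters, not a site in use.

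Mcm10, which couples the helicase to DNA polymerase alpha at the fork, was the only member called between treatments, and it fell with GW3965. Its gene (ENSMUSG00000026669) lies on chromosome 2 from 4989714 to 5012791 on the minus strand (mm10), and no other annotated gene overlaps it. The helicase subunits Mcm2 to Mcm7 had 2.98 to 24.4 normalized counts per kb, so that Mcm10 was 5.52 times as high as the highest of them and 2.23 times as high as Pcna, the next member.

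Mcm10 measured 1161, 1568, 1248 and 981 normalized counts in control vehicle and 1036, 936, 996 and 757 in control GW3965. It measured 1058, 1389, 1324 and 1403 in Gata4LKO vehicle and 826, 926, 712, 644 and 636 in Gata4LKO GW3965. All 5 Gata4LKO libraries with GW3965 lay below all 4 with vehicle, whereas library 4 of control vehicle (981) lay below libraries 9 and 12 of control GW3965. Group means were 1240 ± 245 in control vehicle, 1294 ± 160 in Gata4LKO vehicle, 931 ± 123 in control GW3965 and 749 ± 125 in Gata4LKO GW3965 (SD, n = 4, 4, 4 and 5).

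**Figure D2:**
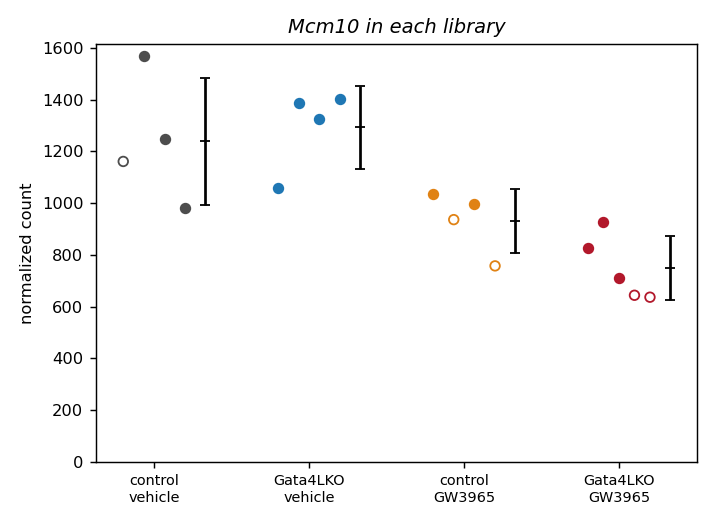
Mcm10 in normalized counts in each library of the 4 groups; open circles are libraries with over 10% mitochondrial counts, and bars give the mean ± SD. The 5 Gata4LKO libraries with GW3965 sit between 636 and 926, below the 4 with vehicle at 1058 to 1403.

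On the log2(normalized count + 1) scale, the Mcm10 difference with GW3965 averaged over genotypes was -0.60 ± 0.11 (SE; limma-trend over all 17 libraries, adjusted p = 0.00637), or to 0.661 of the vehicle level (95% interval 0.564 to 0.774). In Gata4LKO the difference was -0.79 ± 0.15 (limma adjusted p = 0.0291, 0.577 of vehicle, interval 0.464 to 0.716). In control it was -0.40 ± 0.16 and did not pass (limma adjusted p = 0.395). The difference between these responses was itself tested and did not pass, at -0.39 ± 0.22 (limma adjusted p = 0.997), so the fall was not shown to differ between genotypes. Between genotypes Mcm10 differed by 0.07 ± 0.16 with vehicle and by -0.32 ± 0.15 with GW3965 (limma adjusted p = 0.972 and 0.762).

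The call averaged over genotypes held when any single library was left out (-0.65 to -0.54, limma adjusted p from 0.0037 to 0.02). Without the 5 libraries rich in mitochondrial counts it was -0.47 ± 0.12 (limma adjusted p = 0.0725). The fall within Gata4LKO kept its direction in each refit with 1 library fewer (-0.89 to -0.74), but leaving out library 6, 7, 8, 16, 17 or 18 ended the call, with an adjusted p of up to 0.119, and so did leaving out the libraries rich in mitochondrial counts (-0.65 ± 0.15, limma adjusted p = 0.109). In control vehicle the 1 such library had Mcm10 at 1161, inside the range of 981 to 1568 of the other 3. Within control GW3965, the 2 such libraries had 757 and 936, against 996 and 1036 in the other 2. Within the Gata4LKO GW3965 group, the 2 such libraries had Mcm10 at 636 and 644, against 712 to 926 in the other 3. With a yes-or-no class of mitochondrial share over 10% as a term of the model the difference was -0.69 ± 0.13 (limma adjusted p = 0.0355). The share itself was not fitted. In Gata4LKO, Gm5345 was near 0 in all 4 vehicle libraries and in 0 of 5 with GW3965, so this split of the libraries and the treatment cannot be told apart there. With Gm5345 class as a term the difference in Gata4LKO was -0.61 and was not called (limma adjusted p = 0.999), and that averaged over genotypes was -0.55 and was called (limma adjusted p = 0.0317).

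Markers of other liver cells differed between the same groups. Of 9 sinusoidal endothelial markers, 9 were higher with GW3965 on the average over genotypes and 1 passed (Cdh5, 0.64 ± 0.10, limma adjusted p = 0.00216); their summed level was 3981 to 4568 in control vehicle, 4059 to 4943 in Gata4LKO vehicle, 4210 to 6929 in control GW3965 and 4726 to 6775 in Gata4LKO GW3965. Of 12 Kupffer cell and macrophage markers, 11 were higher and 2 passed (Cd5l and Mpeg1), with summed levels of 3345 to 4595, 5229 to 6192, 5369 to 8903 and 5521 to 8027 in that order. Within control all 12 were higher with GW3965, and within Gata4LKO 7 were. Of the 12, 7 and 1 had an unadjusted limma p below 0.05, against 8.96% and 11.95% of all tested genes. Between genotypes with vehicle, all 12 were higher in Gata4LKO, by a median of 0.56, and 0 passed. Of them 9 had an unadjusted limma p below 0.05 there (75%, against 6.15% of all tested genes). On the average over genotypes, 1.78% of all tested genes passed. Of 9 erythroid markers 8 were tested, 7 were lower and 1 passed (Alas2, -0.60 ± 0.14, limma adjusted p = 0.0363), with sums of 2964 to 4713, 2879 to 3376, 2160 to 3114 and 1906 to 2863. Of 10 markers of stellate cells and fibroblasts, 9 were higher with GW3965 in Gata4LKO by a median of 0.51 over the list, none passed, and 5 had an unadjusted limma p below 0.05 (against 11.95% of all tested genes). Their sums were 3893 to 4612 in control vehicle, 3845 to 5156 in Gata4LKO vehicle, 3937 to 4890 in control GW3965 and 4906 to 7205 in Gata4LKO GW3965. The 8 hepatocyte markers differed by a median of -0.03 on the average over genotypes. Their part in the Mcm10 result was not tested.

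Mcm10 was the 1 of 26 tested members called for GW3965 averaged over genotypes, where 1.78% of all 13379 tested genes were called, and the 1 of 26 called for GW3965 in Gata4LKO, where 0.247% were. No member was called for GW3965 in control (0.792% of all genes), for Gata4LKO against control with vehicle (0.0149%), with GW3965 (0.0598%) or averaged over treatments (0.224%), or for the interaction (0.0149%). In the same order of comparisons, 6, 4, 2, 1, 3, 2 and 3 of the 26 members had an unadjusted limma p below 0.05. That is 23.1%, 15.4%, 7.69%, 3.85%, 11.5%, 7.69% and 11.5% of them, against 15.3%, 11.95%, 8.96%, 6.15%, 6.47%, 7.19% and 4.65% of all tested genes. Refits with edgeR, DESeq2 and limma-voom called Mcm10 in the same comparisons and no other member. In the authors' deposited tables, too, Mcm10 was the only member called, for GW3965 in Gata4LKO (log2 fold change of -0.79, adjusted p = 3.91e-04), among 27 members with an adjusted p. Those tables called 1.33% of genes for GW3965 in Gata4LKO, 1.62% in control, 0.434% between genotypes with vehicle, 0.51% with GW3965 and 0.19% for the interaction.

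Over the 26 tested members the median log2 difference was -0.09 for GW3965 averaged over genotypes, with 11 of 26 above 0, and -0.03 for Gata4LKO averaged over treatments, again with 11 above 0. Over all tested genes both medians were -0.01. The median half-width of the 95% interval of a member, without adjustment over genes, corresponded to 1.36-fold for these averaged comparisons. It was 1.57-fold for those between vehicle groups or within control. Smaller differences could not be told from 0, and a call at the adjusted threshold needed larger ones. Bub1b, at 0.78 ± 0.29 for Gata4LKO averaged over treatments, was not called (limma adjusted p = 0.466). Spread between libraries of a group exceeded counting noise by a median ratio of variances of 3.39 in members and 6.97 in all tested genes. For Ccna2 (0.948), Bub1b (1.46) and Rrm1 (1.63) the ratio was under 2, which is 11.5% of the members against 6.37% of all tested genes. Members and all tested genes were not matched for counts.

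**Figure D3:**
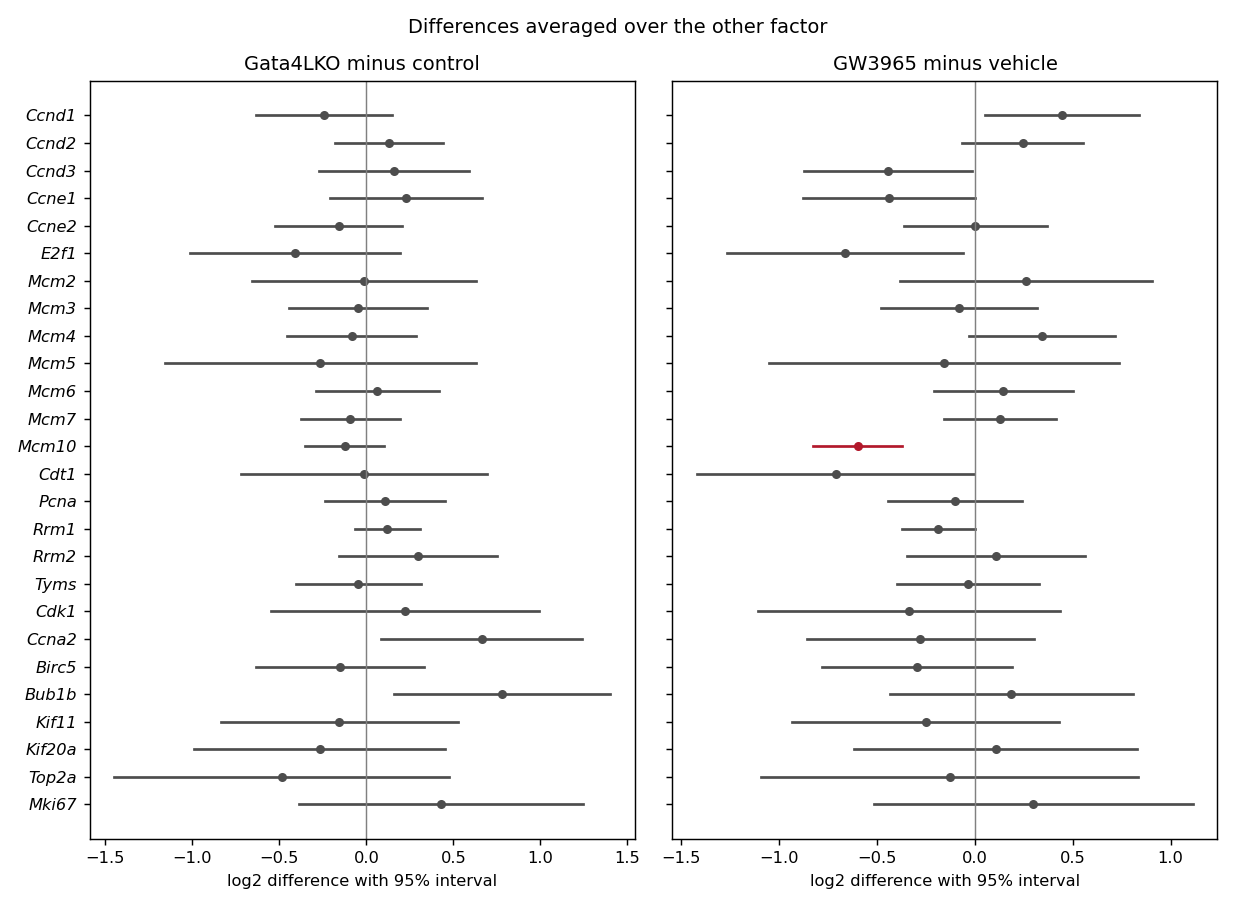
Log2 differences with 95% intervals of the 26 tested members for Gata4LKO minus control averaged over treatments (left) and GW3965 minus vehicle averaged over genotypes (right), from limma; red marks an adjusted p below 0.05. Mcm10 at -0.60 is the single red member, and the intervals of most other members cross 0.

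Among the G1 genes, Ccnd1, the cyclin D1 that couples growth signals to entry, was the member with the most counts per kilobase. It measured 163, 294, 162 and 174 in control vehicle, 140, 225, 195 and 193 in Gata4LKO vehicle, 234, 275, 456 and 275 in control GW3965 and 260, 344, 238, 139 and 177 in Gata4LKO GW3965. Libraries with GW3965 reached higher values, and the groups overlapped. The difference with GW3965 was 0.64 ± 0.27 in control (limma adjusted p = 0.456) and 0.45 ± 0.19 averaged over genotypes (limma adjusted p = 0.265), and neither passed.

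E2f1, an activator of the S phase programme, measured 25.3, 31.2, 34.1 and 21.4 in control vehicle, 20.02, 8.42, 32.8 and 17.5 in Gata4LKO vehicle, 10.0, 16, 18.4 and 15.9 in control GW3965 and 13.3, 29.4, 9.94, 7.71 and 10.0 in Gata4LKO GW3965. In control, all GW3965 libraries lay below all vehicle libraries, a separation that 5.84% of all tested genes showed for that comparison in 1 direction or the other. The difference was -0.86 ± 0.42 in control (limma adjusted p = 0.574) and -0.66 ± 0.29 averaged over genotypes (limma adjusted p = 0.281). For Gata4LKO averaged over treatments it was -0.41 ± 0.29 (limma adjusted p = 0.876), and -0.24 without library 6.

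Ccne1, the cyclin E1 that drives the start of S phase, measured 31.6, 31.2, 55.8 and 39.8 in control vehicle, 43.4, 70.5, 80.4 and 43.8 in Gata4LKO vehicle, 32.5, 46.0, 35.8 and 30.6 in control GW3965 and 51.8, 38.4, 27.8, 19.3 and 36.8 in Gata4LKO GW3965. Libraries 6 and 7 of Gata4LKO vehicle were the highest of all. The difference was 0.56 ± 0.30 between genotypes with vehicle and -0.78 ± 0.29 for GW3965 in Gata4LKO (limma adjusted p = 0.852 and 0.313). Ccnd2, Ccnd3 and Ccne2 ranged over all libraries from 119 to 248, 106 to 443 and 37.7 to 85.2. Means of Ccnd3 were 311 in control vehicle, 358 in Gata4LKO vehicle, 238 in control GW3965 and 275 in Gata4LKO GW3965. For GW3965 averaged over genotypes, 4 of the 6 G1 genes had an unadjusted limma p below 0.05, against 15.3% of all tested genes. None was called, and 3 of the 6 differences were above 0.

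**Figure D4:**
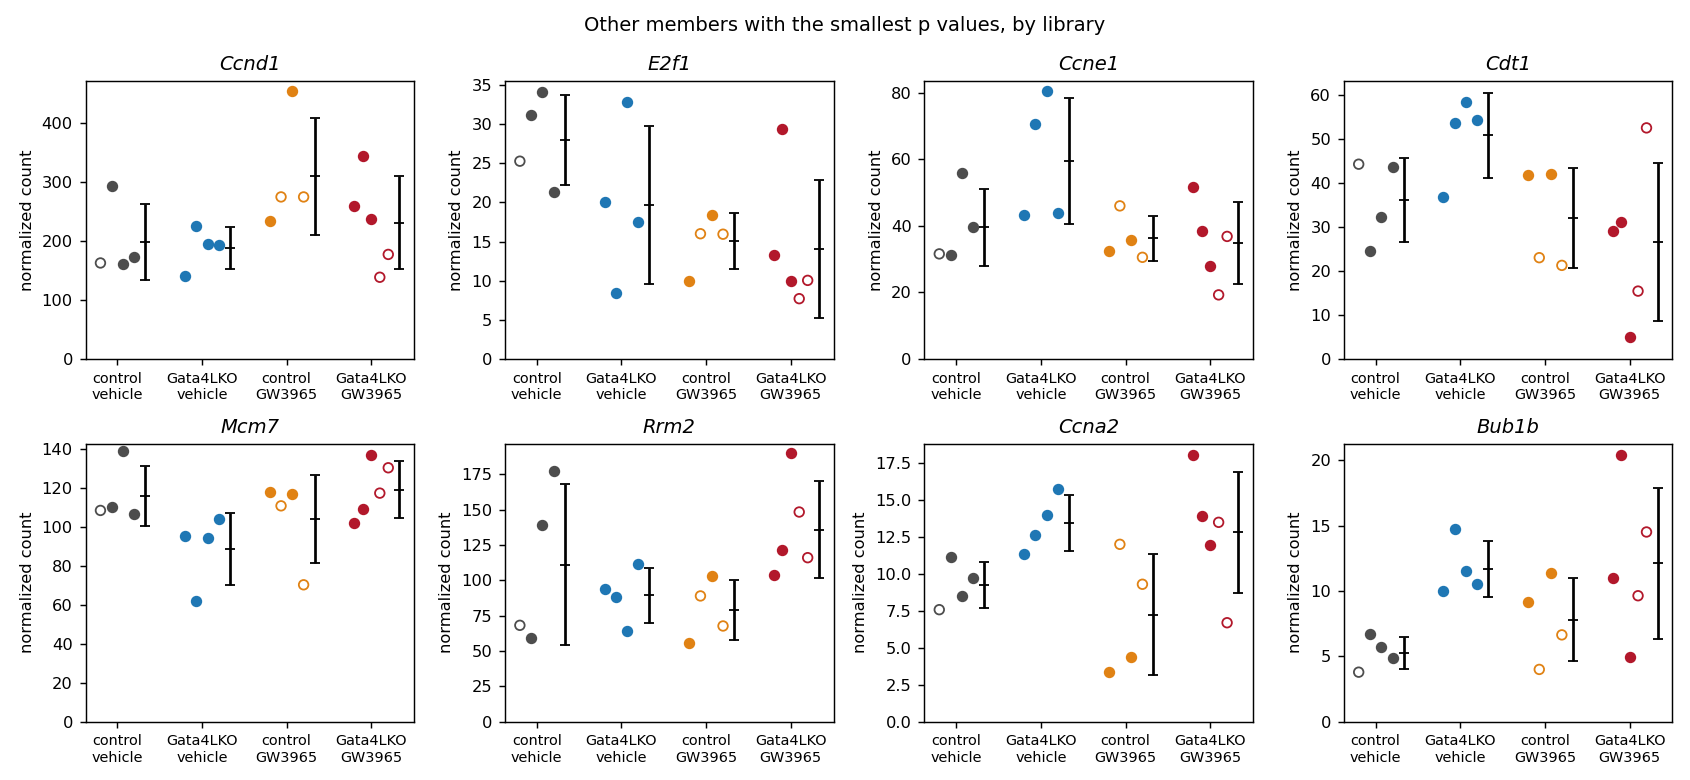
Normalized counts in each library of the 8 members other than Mcm10 that were among the 3 smallest p values of a comparison; open circles are libraries with over 10% mitochondrial counts, and bars give the mean ± SD. In E2f1 the control libraries with GW3965 lie below those with vehicle, in Bub1b and Ccna2 the Gata4LKO vehicle libraries lie above the control vehicle ones, and none of these differences passed the adjusted threshold.

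Among licensing and fork genes, Cdt1, the factor that helps load the helicase, measured 44.2, 24.5, 32.2 and 43.7 in control vehicle, 36.7, 53.7, 58.3 and 54.3 in Gata4LKO vehicle, 41.7, 23.0, 42.0 and 21.3 in control GW3965 and 29.1, 31.0, 4.97, 15.4 and 52.5 in Gata4LKO GW3965. The last group held both one of the highest values, in library 18, and the lowest, in library 16. The difference for GW3965 in Gata4LKO was -1.22 ± 0.46 (limma adjusted p = 0.326), and -0.75 without library 16. Cdt1 shares part of its locus with the annotated gene Gm20388 on the same strand. Mcm7 overlaps Cops6, Ap4m1 and microRNA genes, Ccna2 overlaps Exosc9, and Ccnd1 overlaps LTO1.

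Mcm7, a helicase subunit, measured 109, 110, 139 and 107 in control vehicle, 95.4, 62.1, 94.4 and 104 in Gata4LKO vehicle, 118, 111, 117 and 70.4 in control GW3965 and 102, 109, 137, 118 and 131 in Gata4LKO GW3965. All Gata4LKO vehicle libraries were below all control vehicle libraries, by a difference of -0.40 ± 0.20 (limma adjusted p = 0.824), and of -0.24 without library 6. Between these groups 3 of 26 members did not overlap (Mcm7, Bub1b and Ccna2), against 6.58% of all tested genes. The Gm5345 split of the libraries coincides with genotype between these groups. The other helicase subunits ran over all libraries from 5.05 to 35 for Mcm2, 25.2 to 59.5 for Mcm3, 41.7 to 112 for Mcm4, 1.93 to 27.1 for Mcm5 and 36.7 to 75.2 for Mcm6. Pcna, the sliding clamp of the fork, ran from 82.4 to 224.

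Of nucleotide supply, Rrm2, the regulated subunit of ribonucleotide reductase, measured 68.2, 59.0, 139 and 178 in control vehicle, 94.1, 88.4, 64.0 and 111 in Gata4LKO vehicle, 55.8, 89.0, 103 and 67.7 in control GW3965 and 104, 122, 190, 148 and 116 in Gata4LKO GW3965. With GW3965, all Gata4LKO libraries lay above all control libraries, and Rrm2 was the 1 of 26 members for which these groups did not overlap, against 1.96% of all tested genes. The difference was 0.78 ± 0.30 and did not pass (limma adjusted p = 0.631). Rrm1, the large subunit, and Tyms, which makes thymidylate, ran from 141 to 216 and from 34.7 to 86.7 over all libraries.

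Among the mitotic regulators that could be tested, Bub1b, the spindle checkpoint gene for BubR1, measured 3.79, 6.68, 5.68 and 4.85 in control vehicle, 10.0, 14.7, 11.5 and 10.5 in Gata4LKO vehicle, 9.17, 4.00, 11.4 and 6.64 in control GW3965 and 11.0, 20.4, 4.97, 9.63 and 14.5 in Gata4LKO GW3965. The Gata4LKO vehicle libraries lay above all control vehicle ones, while the GW3965 groups overlapped. The difference between genotypes was 1.03 ± 0.43 with vehicle (limma adjusted p = 0.749) and 0.78 ± 0.29 averaged over treatments (limma adjusted p = 0.466). These values rest on 3 to 25 reads per library.

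Ccna2, the cyclin A2 of S phase and G2, measured 7.58, 11.1, 8.52 and 9.71 in control vehicle, 11.3, 12.6, 14 and 15.8 in Gata4LKO vehicle, 3.33, 12, 4.37 and 9.30 in control GW3965 and 18.1, 13.9, 11.9, 13.5 and 6.70 in Gata4LKO GW3965. Library 8 was the highest with vehicle, and libraries 16 and 18 lay inside the control range with GW3965. The difference between genotypes was 0.83 ± 0.38 with GW3965 (limma adjusted p = 0.758) and 0.66 ± 0.28 averaged over treatments (limma adjusted p = 0.57), on 4 to 23 reads per library. Cdk1, the mitotic kinase, ran from 2.23 to 19.99 and Kif11, the motor that separates spindle poles, from 3.98 to 31.9.

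For GW3965 in Gata4LKO, Mcm10 was the 1 of 26 members whose groups did not overlap, against 5.25% of all tested genes, and for GW3965 in control E2f1 was the 1. No library was the highest or the lowest in more than 5 of 26 members. Library 12 of control GW3965 was the highest in 5 of 26 members, against 3.24% of all tested genes. Libraries 16 and 17 of Gata4LKO GW3965 were each the lowest in 5, against 12.5% and 20.6% of all tested genes.

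**Figure D5:**
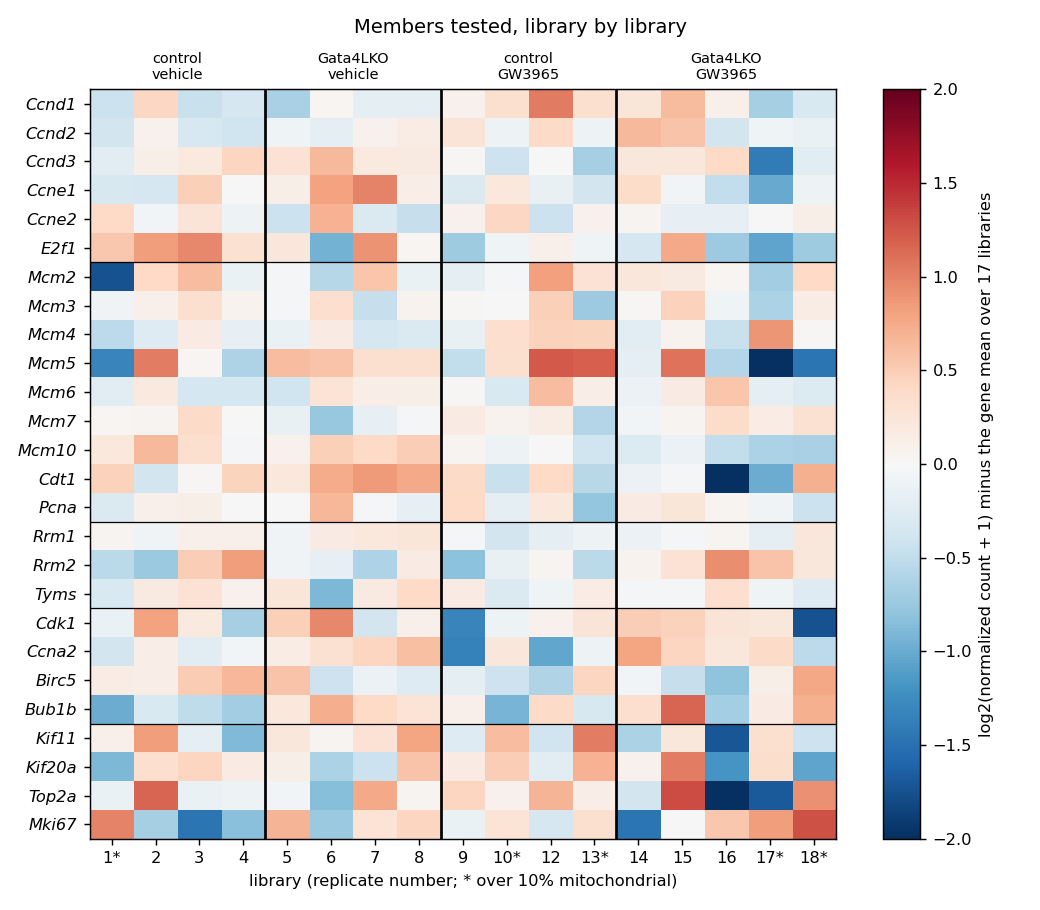
Log2(normalized count + 1) of the 26 tested members in each library, minus the mean of that gene over 17 libraries; columns are libraries by group, with an asterisk where over 10% of counts were mitochondrial, and rows are ordered by role. Mcm10 is below its mean in the 5 Gata4LKO GW3965 libraries, and the mitotic genes in the lower rows vary from library to library within every group.

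The wider cell cycle was examined in 4 further lists. They held 21 tested genes of 23 for other regulators of G1 and S phase, 12 of 14 for inhibitors of cyclin-dependent kinases and p53-linked arrest genes, 44 of 49 for other replication fork genes and 29 of 67 for other mitosis genes. None was called by limma over all 17 libraries without a further term in the model in any of the 7 comparisons, and edgeR gave the same. With GW3965 averaged over genotypes, 3, 0, 5 and 2 of them had an unadjusted limma p below 0.05 (14.3%, 0%, 11.4% and 6.90%, against 15.3% of all tested genes), and the list medians were -0.00, 0.05, -0.04 and -0.13 on the log2 scale against -0.01 over all genes. Of the 12 inhibitors and arrest genes, 4 had such a p for the interaction (33.3%, against 4.65%). It was 3 for genotype with GW3965 (25%, against 6.47%) and 3 for GW3965 in control (25%, against 8.96%). For genotype with vehicle it was 2 (16.7%, against 6.15%), and for GW3965 in Gata4LKO 1 (8.33%, against 11.95%).

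Pola1, the catalytic subunit of the polymerase alpha that works with Mcm10, came nearest to the threshold. It differed by 0.42 ± 0.11 with GW3965 averaged over genotypes (limma adjusted p = 0.0675), in the direction opposite to Mcm10. It measured 91.0, 89.1, 79.5 and 74.7 in control vehicle, 86.1, 88.4, 86.2 and 93.8 in Gata4LKO vehicle, 135, 136, 83.1 and 98.3 in control GW3965 and 122, 115, 119, 112 and 129 in Gata4LKO GW3965. Within Gata4LKO the groups did not overlap, and within control library 12 lay among the vehicle libraries. Without library 12 it was called (0.49, limma adjusted p = 0.0291), as it was with Gm5345 class as a term (0.56, limma adjusted p = 0.0099). DESeq2 called Pola1 (adjusted p = 0.0128), Myc (0.0344) and the kinetochore gene Spc25 (0.0397) higher with GW3965 on the average over genotypes, and limma called Spc25 without library 1 (0.83, adjusted p = 0.0278) and without the libraries rich in mitochondrial counts (0.60, adjusted p = 0.0353).

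Cdkn1a, the p21 inhibitor of cyclin-dependent kinases, differed widely between libraries of a group. It measured 421, 121, 232 and 107 in control vehicle, 109, 37.9, 62.4 and 328 in Gata4LKO vehicle, 30.0, 20, 173 and 183 in control GW3965 and 192, 533, 228, 262 and 306 in Gata4LKO GW3965. Of the 6 libraries with Gm5345 near 0, libraries 5, 6, 7, 9 and 10 had 20 to 109 and library 8 had 328, and the part of this difference between libraries was not tested. The difference between genotypes with GW3965 was 2.08 ± 0.66 (limma adjusted p = 0.434) and the interaction 3.04 ± 0.96 (limma adjusted p = 0.734). Myc, a growth-promoting transcription factor, differed by 1.35 ± 0.42 for GW3965 in Gata4LKO (limma adjusted p = 0.222), where DESeq2 called it (1.54, adjusted p = 0.0131) and edgeR did not (1.52, adjusted p = 0.158). In the same comparison Cdca3, a trigger of mitotic entry, differed by -1.12 ± 0.31 (limma adjusted p = 0.155).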

How the data were processed

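The authors deposited 1 table of normalized counts, a signal made of reads over a single size factor for each library: each value came within 0.05 of a whole read. Their comparison tables hold log2 fold changes, p-values and adjusted p-values, per the file headers. STAR 2.6.0c, mm10, FastQC and DESeq2 are named in the submitters' processing notes. The counter, the annotation and strandedness: not given in the sources used here. Hence reads cannot be assigned between overlapping genes, which 19 of the 40 genes have in GENCODE M21. The source of exon lengths was that annotation, which held 24656 of 24676 identifiers.

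Differences were tested with limma-trend (limma 3.58.1, R 4.3.3) on log2(normalized count + 1), 1 coefficient per group, all 17 libraries in 1 fit, with Benjamini-Hochberg adjustment over 13379 genes and calls below 0.05. On this scale the added 1 makes fold changes of low genes smaller, while a single low library can make them larger. Cdt1 for GW3965 in Gata4LKO differed by -1.22 here and by -0.91 in the authors' deposited comparison. Refits used edgeR 4.0.16, DESeq2 1.42.0 and limma-voom on the recovered reads, other scalings, pseudocounts (0.5 and 10), filters (none and 20), covariates and subsets of libraries. Scripts were tested on simulated data. The members and lists were chosen with earlier results of these data known, and non-overlap counts, counting-noise ratios and printed promoters were chosen after values were seen. Single members were named if called, among the 3 smallest p values of a comparison, or highest per kb in their role; of the other lists, those named were among the 2 smallest p values of a comparison. Age at virus injection is 10 weeks in the labels and 9 in the design text. The labels do not state that libraries came from separate mice, so p-values measure the spread between libraries. Depth of 11.8 to 22.05 M reads limits genes with few reads, and counting intervals cover counting error only. Of the erythroid markers, 1 gene's own value is not reported here.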

Additional observations from a re-analysis of the deposited data

Results flagged for a closer look

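In 11 of 104 groups of member values (10.6%), the highest or lowest library stood apart from the others of its group by Dixon's criterion, which chance meets in about 1 in 20. In control vehicle, library 2 was highest for Ccnd1 (294), Ccnd2 (167) and Top2a (20.04), library 3 for Mcm7 (139) and library 1 for Mki67 (30.3). In Gata4LKO vehicle, library 6, one of those with the fewest genes above 0, was highest for Ccne2 (85.2) and Pcna (224). In control GW3965, library 13 was lowest for Mcm7 (70.4). In Gata4LKO GW3965, library 15 was highest for E2f1 (29.4), library 17 was highest for Mcm4 (112) and library 18 was lowest for Cdk1 (2.23). Libraries 1, 13, 17 and 18, which gave 4 of these values, have over 10% mitochondrial counts. All are normalized counts.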

How the results depend on the processing

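Up to 32 alternative settings were run per comparison. The Mcm10 call with GW3965 averaged over genotypes was kept under all but 1 of 30: without the libraries rich in mitochondrial counts, 0 members were called. For GW3965 in Gata4LKO, 1 member was called in most settings and 0 in 10. The latter were the fit to only the groups compared (Mcm10 -0.79, limma adjusted p = 0.0544), the fit without the mitochondrial-rich libraries, that with Gm5345 class as a term (-0.61, adjusted p = 0.999), that without both libraries with few genes (-0.74, adjusted p = 0.19), and leaving out 1 of 6 libraries, so that leaving out each library in turn gave 0 to 1 called. The cause was not tested, except that subsets have fewer libraries. Every alternative gave 0 members called in the other 5 comparisons. With edgeR the Mcm10 differences were -0.60 and -0.79 (adjusted p = 0.00662 and 0.0336) and with DESeq2 -0.60 and -0.78 (adjusted p = 4.07e-05 and 3.55e-04). For Ccna2, the difference between genotypes with GW3965, which was not called, turned to -0.13 in the mitochondrial-rich libraries alone, a setting chosen after seeing the data; of 551 refitted differences of named members, it was the 1 that reversed, 539 kept direction and side of the threshold, and 11 lost the call. Among all genes, DESeq2 called more: 49 against 2, 81 against 8, 226 against 106, 200 against 33, 26 against 2, 129 against 30 and 527 against 238 by limma, in the order genotype with vehicle, with GW3965, GW3965 in control, in Gata4LKO, interaction, averaged genotype and averaged GW3965. The lowest counts over all settings in that order were 0, 1, 12, 1, 0, 8 and 142. The members' median difference for averaged genotype changed sign in 5 of 30 settings, and 4 others changed sign in 1 setting each: averaged GW3965 (0.0016 with the class of mitochondrial share as a term), genotype with GW3965 (0.03 without library 17), GW3965 in control (0.01 without library 13) and GW3965 in Gata4LKO (0.0042 with DESeq2). For averaged GW3965 it ran from -0.15 to -0.00096 when 1 library was left out. Averaged comparisons and the interaction use all groups, so a fit to only the groups compared was not run for them. No paired analysis was possible because the titles give every library its own number.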
